A study of Mus musculus with 2 samples.

Results

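*Lhx6*, *Sox6*, *Prox1*, *Npas1* and *Erbb4* are 5 genes of cortical interneuron development, and all 5 were among the 500 genes of the MERFISH probe panel. In MERFISH each RNA species has a fluorescent code, and molecules are decoded in place from successive rounds of imaging. The genes were taken by name from the count tables of 2 coronal brain sections of E16.5 mice, 1 control and 1 *Dnmt1* KO, each 10 µm thick. Control mice carried *Sst-Cre/tdTomato*, and KO mice carried the same alleles together with loxP-flanked *Dnmt1*. Cre driven by *Sst*, the gene of the neuropeptide somatostatin, thus deletes *Dnmt1* only in cells that have switched on *Sst*, and all other cells of the KO section keep the gene. *Dnmt1* itself was not on the panel, so the deletion could not be checked here. With 1 section per group there was no replicate and no test, and genotype cannot be told apart from any other difference between the sections.

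Cortical interneurons are born in the ganglionic eminences, the germinal swellings of the subpallium, and migrate into the cortex, where they use GABA as their transmitter. *Lhx6* encodes a LIM homeodomain factor of neurons from the medial ganglionic eminence, and *Sox6* encodes a SoxD factor that acts downstream of *Lhx6* in these cells. *Prox1* encodes a homeodomain factor of interneurons from the caudal ganglionic eminence, *Npas1* a bHLH-PAS factor of forebrain interneurons, and *Erbb4* the neuregulin receptor tyrosine kinase that migrating interneurons carry. In the GRCm39 mouse annotation, used here for position only, all 5 genes lie on the minus strand. *Lhx6* is at chr2:35971964-35995601, *Sox6* at chr7:115070106-115638860 and *Npas1* at chr7:16188679-16211653. *Prox1* is at chr1:189850232-189904637 and *Erbb4*, the longest, at chr1:68071345-69147619.

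The sections differed in depth, with a median of 20 panel transcripts per segmented cell in the control and 101 in the KO. Cells with at least 20 were kept, which left 55231 of 108533 control cells and 101250 of 110004 KO cells. A transcript of *Gad1* or *Gad2*, which encode the GABA-synthesizing enzymes, was present in 26.6% of kept control and 44.5% of kept KO cells, and such cells are called Gad+ here. A deeper cell meets this rule more easily, so Gad- cells of the control can include GABAergic cells that are Gad+ in the KO. Levels are given as counts per 1000000 panel transcripts (CPM), which scales for depth but not for its part in this choice of cells, with exact Poisson 95% intervals that cover counting error only. False decoding, measured with 50 blank barcodes, had a median of 82.1 and 87.5 CPM and a highest value of 262 and 240 CPM. Over the whole section the 5 genes lay above that, lowest for *Npas1* with 414 and 324 CPM, but *Npas1* lay inside the blank range in Gad+ cells of the ganglionic eminence. Of their decoded molecules, 81.5% to 87.1% lay inside segmented cells, against 81.4% and 81.6% of all panel molecules.

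Each gene had its own map. *Lhx6* filled the subpallium, *Prox1* lined the ventricular zone, *Npas1* followed the outer cortex and *Sox6* was split between subpallium and the inner cortical border. In the KO, pallial Gad+ cells held 47.5% of all *Npas1* molecules but 7.24% of *Prox1* and 9.83% of *Sox6*, where they held 8.09% of all panel transcripts. In the control the same cells held 22.7% of *Npas1*, 3.49% of *Prox1* and 4.92% of *Sox6*, beside 3.53% of all panel transcripts. Subpallial mantle Gad+ cells held the largest share of *Lhx6*, 41.0% in the control and 51.2% in the KO. Gad- cells outside the regions described below held 29.3% and 21.6% of *Prox1* and 31.04% and 22.2% of *Sox6* molecules, beside 33.97% and 23.0% of all panel transcripts.

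**Figure D1:**
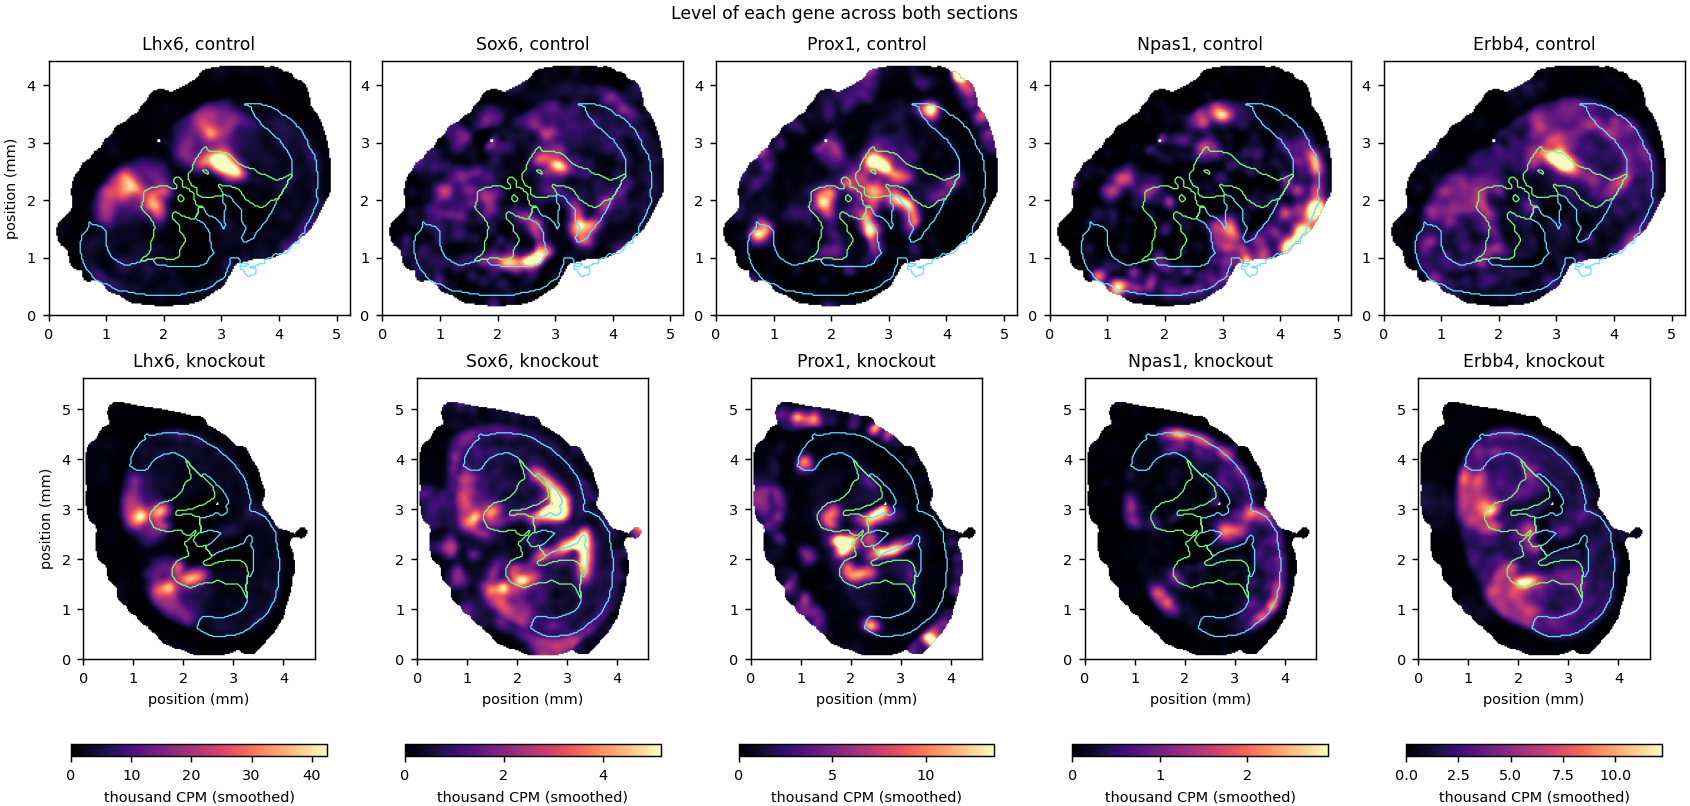
Smoothed level of each gene (colour, units of 1000 CPM, one scale per gene) across the control (upper) and KO (lower) sections, with axes in mm. The blue line encloses the pallial region and the green line the ganglionic eminence region. *Npas1* is brightest along the outer pallial edge, *Lhx6* and *Erbb4* in the subpallium, and *Sox6* and *Prox1* along ventricular borders.

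To compare the genes between the germinal subpallium and the cortex, 3 regions were drawn from the summed level of other genes. Gad+ cells of each region can be different mixtures of GABAergic cells. A ratio between regions therefore does not follow cells along their migration. The pallial region, which holds the developing cortex, covered 3.6 and 3.5 mm² in the control and KO with 1559 and 6061 Gad+ cells. The ganglionic eminence (GE) region, the periventricular germinal part of the subpallium including the facing septal wall, covered 1.76 and 1.68 mm² with 2690 and 12016 Gad+ cells. The remaining subpallial mantle held 9733 and 25068 Gad+ cells. *Gad1* and *Gad2* were themselves among the 15 genes that marked subpallium, against 5 for pallium.

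*Npas1* was the gene that differed most between GE and cortex. In Gad+ cells its level was 176 CPM in the GE, 409 in the mantle and 2661 in the pallial region of the control. The KO levels were 125, 241 and 1904 CPM, so both sections showed the same measured order. The KO mantle level (225 to 257 CPM) was not separated from the highest KO blank barcode, 240 CPM. The measured ratio, pallial over GE, was 15.1-fold in the control, a log2 ratio of 3.92 (3.02 to 4.92) from 16 GE and 218 pallial molecules. It was 15.3-fold in the KO, a log2 ratio of 3.93 (3.66 to 4.21) from 179 and 2063 molecules. Both GE levels were below the highest blank barcode, so expression there was not separated from false decoding, and these ratios are of measured levels only. Taken by hemisphere, the log2 ratios were 2.53 and 4.33 in the control and 3.76 and 4.10 in the KO.

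*Prox1* went the other way. Its Gad+ level was 5690 CPM in the GE, 1233 in the mantle and 1904 in the pallial region of the control. In the KO it was 3599, 1561 and 1692 CPM. Pallial levels were thus 2.99-fold below the GE in the control, with a log2 ratio of −1.58 (−1.94 to −1.23), and 2.13-fold below in the KO, with −1.09 (−1.20 to −0.98). All 4 hemispheres had the direction, but control hemispheres ranged from −2.02 to −0.54, and the latter interval (−1.20 to 0.09) includes 0.

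The other genes differed less. *Lhx6* had 11182, 11493 and 10313 CPM in Gad+ cells of the GE, mantle and pallial region of the control and 8365, 8482 and 8485 CPM in the KO. Its pallial over GE log2 ratios of −0.12 (−0.30 to 0.07) and 0.02 (−0.03 to 0.08) both had intervals that include 0. *Sox6*, which needs *Lhx6* for its interneuron expression, had 879, 880 and 1013 CPM in the control and 1228, 1324 and 1498 CPM in the KO. Its log2 ratios were 0.21 (−0.44 to 0.85) and 0.29 (0.15 to 0.43). *Erbb4* had 4383, 3514 and 6737 CPM in the control and 4422, 4056 and 6120 CPM in the KO. Its Gad+ level was therefore highest in the pallial region in both sections, with log2 ratios over the GE of 0.62 (0.36 to 0.89) and 0.47 (0.40 to 0.54). Over all decoded molecules of a region, which include those of Gad- cells, the ratio turned to −0.90 and −0.76 for *Erbb4* and was −1.69 and −1.18 for *Lhx6*, past 1.

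At or past a log2 ratio of 1 in either direction lay 2 of the 5 genes in each section, *Npas1* and *Prox1*. Of all panel genes with at least 50 molecules in both groups together, the control had 56.6% (146 of 258) past it and the KO 45.8% (229 of 500), so the count of 2 was no higher than the panel's share. The panel medians were 0.68 and 0.63. Among Gad- cells the same ratio ran downward for *Lhx6* (−1.83 and −1.90) and *Prox1* (−1.92 and −1.63). It was −1.12 and −0.98 for *Sox6*, −0.84 and −1.46 for *Erbb4*, and 1.45 and 0.26 for *Npas1*. Past 1 were 4 genes in the control, all but *Erbb4*, and 3 in the KO, *Lhx6*, *Prox1* and *Erbb4*, where 47.9% and 46.4% of panel genes were. The *Npas1* level of GE Gad- cells, 254 and 235 CPM, was not above the highest blank barcode either, so its place in the control count is not separated from false decoding. *Erbb4* was thus higher in the cortex in Gad+ cells and lower in Gad- cells. Its Gad+ ratios, 0.62 and 0.47, lay below the panel medians of 0.68 and 0.63, so the rise was no larger than that of a typical panel gene. *Lhx6* was lower in Gad- cells, while in Gad+ cells its hemispheres had no shared direction, with log2 ratios of 0.07 (−0.37 to 0.51) and −0.27 (−0.48 to −0.06) in the control hemispheres and −0.23 (−0.31 to −0.15) and 0.27 (0.19 to 0.35) in those of the KO.

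**Figure D2:**
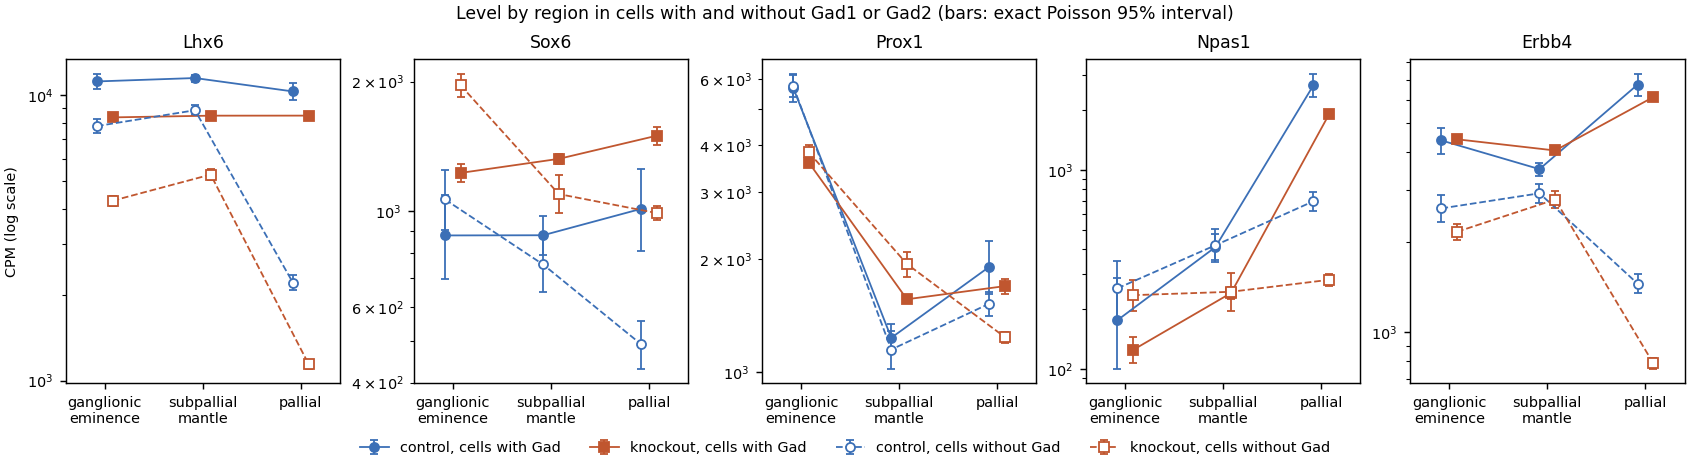
Level of each gene (CPM, log axis) in 3 regions, for cells with (filled, solid) and without (open, dashed) a *Gad1* or *Gad2* transcript in the control (blue) and KO (orange) section. Bars are exact Poisson 95% intervals. *Npas1* in Gad+ cells has 176 CPM in the GE and 2661 in the pallial region of the control, and 125 and 1904 in the KO. *Prox1* is highest in the GE in all 4 series.

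Other interneuron genes of the panel gave a setting for these values. Of 8 measured genes of interneurons from the medial ganglionic eminence, 5 could be read in the control and all 8 in the KO, and the same 5 lay at or past a log2 ratio of 1 in the pallial direction in both. These were *Sst* (3.12 and 3.10), *Elfn1* (3.80 and 2.72), *Nos1* (2.87 and 4.88), *Cxcr4* (1.63 and 1.76) and *Npy* (1.58 and 1.27). A gene was read only with at least 50 molecules in pallial and GE Gad+ cells together. *Pvalb*, *Chodl* and *Tac1*, not read in the control, were those short of 1 in the KO (−0.79, −0.68 and 0.07). A low pallial count helps to leave a gene out, so the control count of 5 was partly set by this rule. The same rule applied to the caudal list. Of 10 measured genes of the caudal list, 6 were read in the control and 10 in the KO, and 4 in each had the pallial direction. Of all panel genes tested, 41.1% and 37.6% were at or past 1 in that direction, close to the caudal list's share in the KO. *Reln* (2.21 and 3.47) and *Ndnf* (4.38 and 4.10) did so in both sections, with *Cxcl14* (1.76) and *Nr2f2* (1.90) in the control, and *Cck* (3.82) and *Lamp5* (1.09) in the KO. *Sp8*, a zinc finger factor of the lateral and caudal eminence, had the GE direction like *Prox1*, with −2.46 and −2.48. *Slc32a1*, which encodes the vesicular GABA transporter, had −0.53 and −1.12. The list medians were 2.87 and 1.51 for the medial list and 1.83 and 0.80 for the caudal list, beside the panel medians above. The control medians cover only the 5 and 6 genes read there, so they do not compare the sections. Of 6 neuregulin pathway genes listed, only *Egfr* was measured besides *Erbb4*, with −0.25 and −0.69.

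Within the pallial region, distance from the subpallium separated the genes further. *Npas1* in Gad+ cells had 561 CPM within 250 µm of the subpallium, 3072 between 250 and 500 µm and 4919 beyond 500 µm in the control, and 580, 2272 and 3925 CPM in the KO. *Prox1* had 4312, 791 and 341 CPM in the control and 3086, 878 and 469 CPM in the KO. The intervals of neighbouring bins did not overlap for *Npas1* in either section, and for *Prox1* they overlapped only between the outer bins of the control (517 to 1159 and 137 to 702 CPM). *Lhx6* had 7012, 12317 and 11690 CPM in the control, where the outer bins overlapped, and 5857, 9306 and 12307 CPM in the KO. *Sox6* and *Erbb4* had no order that both sections shared: *Sox6* had 912, 1338 and 633 CPM in the control and 1430, 1532 and 1571 CPM in the KO. *Erbb4* had 6451, 8333 and 4578 CPM in the control and 5500, 6371 and 6898 CPM in the KO. The orders of *Prox1* and *Npas1* were not particular to Gad+ cells. In Gad- cells *Prox1* had 4168, 630 and 318 CPM in the control and 2418, 979 and 342 CPM in the KO. *Npas1* had 335, 640 and 1100 CPM and 228, 253 and 384 CPM there. The KO intervals of its bins nearest the subpallium overlapped (197 to 263 and 225 to 283 CPM). The cortex curves over the subpallium, so this distance mixes the way along the cortex with the way outward to the surface.

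Depth across the cortical wall was read in 5 equal parts from the outer surface to the ventricular edge. The outermost part, which contains the marginal zone where a tangential stream of interneurons runs, held 44.5% (control) and 46.7% (KO) of the *Npas1* molecules of pallial Gad+ cells, with 19.6% and 21.3% of these cells. The *Npas1* level there was 4745 CPM (3848 to 5789) and 4075 CPM (3822 to 4340), and in the other parts it lay between 1266 and 2618 CPM in the control and between 1175 and 1524 CPM in the KO. *Lhx6* had the same peak, 13698 CPM (12140 to 15400) and 13666 CPM (13199 to 14145), against 8046 to 9943 and 6195 to 7593 CPM in the parts below. *Prox1* was the reverse, lowest in the outermost part with 978 CPM (598 to 1511) and 719 CPM (615 to 835). Its highest Gad+ level lay in the innermost part, 3665 CPM (2552 to 5096) and 2435 CPM (2209 to 2677). Counting error did not separate all ranks. The outermost control interval overlapped that of part 3, 1301 CPM (884 to 1846). The innermost interval overlapped part 2 of the control (1862 to 3519) and part 3 of the KO (1938 to 2287).

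In pallial Gad- cells *Sox6* and *Prox1* peaked at the inner edge, where the progenitors lie. *Sox6* had 1083 CPM (865 to 1339) and 2530 CPM (2390 to 2676) in the innermost part, which held 35.1% and 44.3% of its Gad- molecules. The other parts lay between 296 and 486 CPM in the control and between 459 and 920 CPM in the KO. *Prox1* had 3237 CPM (2851 to 3660) and 2831 CPM (2684 to 2985) there, 33.9% and 39.7% of its Gad- molecules. *Lhx6* and *Npas1* in Gad- cells kept the outer peak of the Gad+ cells, *Lhx6* with 4147 and 1701 CPM and *Npas1* with 1545 and 470 CPM in the outermost part.

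**Figure D3:**
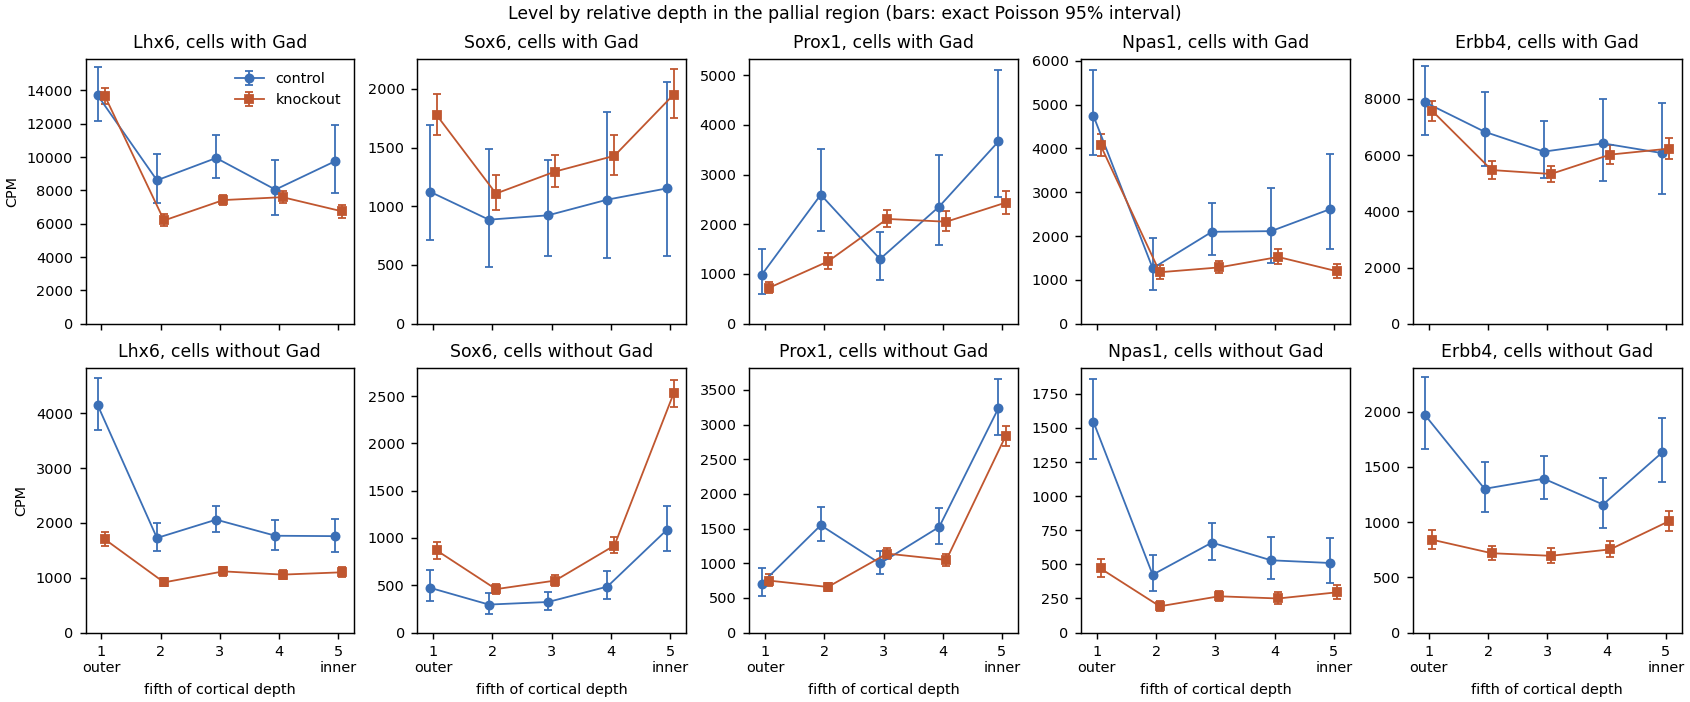
Level of each gene (CPM) in 5 parts of cortical depth, from the outer surface (1) to the ventricular edge (5), for Gad+ (upper) and Gad- (lower) cells of the control (blue) and KO (orange) pallial region. Bars are exact Poisson 95% intervals. *Lhx6* and *Npas1* peak in the outermost part in both kinds of cells, and *Sox6* and *Prox1* of Gad- cells in the innermost part.

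How the genes combine in single cells was asked in Gad+ cells thinned at random to 25 transcripts each, so that depth is equal. This left 9044 control and 22203 KO cells in which *Gad1* or *Gad2* remained. None of the 5 genes was found in 68.0% (67.0 to 69.0, exact binomial interval) of the control cells, and the KO had 69.4% (68.8 to 70.0). Exactly 1 gene was found in 26.8% and 23.7%, 2 genes in 4.77% and 6.13%, and 3 genes in 0.431% and 0.676%. There were 3 control cells and 8 KO cells with 4 genes. All 5 together were found in 0 cells, which by the limit of 3 counts allows a share of up to 0.0332% and 0.0135%. A gene missing from 25 transcripts can still be expressed by the cell, so these are shares of cells with a detected transcript.

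Among cells with any of the genes, *Lhx6* without the others was the most frequently detected state, with 16.3% (15.6 to 17.1) of the control cells and, in the KO, 12.1% (11.7 to 12.5). *Erbb4* alone followed with 5.51% and 6.53%, and *Prox1* alone with 3.10% and 3.03%. *Sox6* alone had 1.08% and 1.63%, and *Npas1* alone 0.730% and 0.464%. The order of different genes also holds their probe efficiencies, which are not known. *Lhx6* with *Erbb4* was the most frequent pair, in 2.39% and 3.13% of cells. *Lhx6* with *Prox1* had 0.752% and 0.703%, *Lhx6* with *Sox6* 0.586% and 1.01%, and *Lhx6* with *Npas1* 0.498% and 0.257%, so the order of the first and second of these differed between the sections. The state frequencies changed with region: *Npas1* alone was found in 7 of 1539 control and 14 of 6689 KO cells of the GE, but in 2.51% of 838 control and 2.36% of 2075 KO cells of the pallial region. *Prox1* alone had 7.86% and 4.63% in the GE and 3.46% and 1.73% in the pallial region.

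All 10 pairs were then compared with the number of cells expected if both genes were independent within a region. *Lhx6* and *Prox1*, which mark interneurons of different eminences, had opposite values in the cortex and the GE. In the pallial region they were together in 1 control cell where 8.15 were expected, a ratio of 0.123 (0.00311 to 0.684), and in 5 KO cells where 18.5 were expected, a ratio of 0.271 (0.0880 to 0.632). In the GE they were together in 50 control cells against 30.4 expected, 1.65 (1.22 to 2.17), and in 147 KO cells against 79.3, 1.85 (1.57 to 2.18). In the mantle the ratios were 1.03 (0.733 to 1.41) and 0.857 (0.657 to 1.1), with 1 inside both intervals. Thinned to 50 transcripts, which keeps fewer but deeper cells, the KO mantle ratio was 0.760 (0.655 to 0.878), below 1. Read as shares, *Lhx6* was found in 3.03% of pallial cells with *Prox1* and in 25.6% of those without in the control, and in 7.35% and 27.8% in the KO. In the GE the shares were 27.9% and 15.5% in the control and 29.3% and 14.7% in the KO. Transcripts of neighbouring cells placed in 1 segmented cell can raise the counts of any pair, and their part was not tested. *Prox1* also had 5750 and 3833 CPM in Gad- cells of the GE, so it did not mark interneurons alone there.

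The pallial counts are small and rest on 1 random draw of transcripts. At 50 transcripts the pallial ratios were 0.171 and 0.531 (0.361 to 0.754 in the KO). Without thinning, 16 control cells held both against 31.4 expected and 262 KO cells against 358, log2 ratios of −0.97 and −0.45. There, cells of unequal depth entered together. The pallial log2 ratio ranged from −3.14 to −0.72 over 7 processing alternatives in the control and from −2.09 to −0.45 over 9 in the KO. Other pairs had 9 and 10 alternatives. Those without a finite log2 ratio, as where 0 cells held both genes, are left out of these ranges. Setting the expectation within each region and cell cluster, an alternative chosen after the data were seen, left the pallial ratios at 0.122 and 0.310 and the GE ratios at 1.5 and 1.65.

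*Sox6* and *Erbb4* went with *Lhx6*, most of all in the GE. *Lhx6* and *Sox6* shared 17 control GE cells against 4.75 expected, 3.58-fold (2.09 to 5.73), and 84 KO GE cells against 32.1, 2.61-fold (2.09 to 3.24). Of GE cells with *Sox6*, 60.7% and 41.4% had *Lhx6*, against 16.2% and 15% of those without. In the mantle the ratio was 1.62 and 2.25, and in the pallial region it was 1.70 (0.736 to 3.36) and 1.31 (0.943 to 1.78), with 1 inside both intervals. With cells thinned to 50 transcripts instead, the control pallial ratio turned to 0.818 (0.3 to 1.78), from 6 cells against 7.33 expected, and the KO ratio was 1.52 (1.29 to 1.77), from 164 cells against 108. *Lhx6* and *Erbb4* had ratios of 2.50 and 2.30 in the GE, 1.26 and 1.69 in the mantle and 1.42 and 1.37 in the pallial region. *Sox6* and *Erbb4* had 3.08 and 2.46 in the GE. Within clusters, the GE ratios were 2.76 and 2.28 for *Lhx6* with *Sox6* and 1.91 and 2.03 for *Lhx6* with *Erbb4*. Outside the GE, *Lhx6* with *Erbb4* became 1.22 (0.908 to 1.61) and 1.09 (0.929 to 1.27) in the pallial region. In the mantle it became 1.12 (0.943 to 1.32) and 1.31 (1.18 to 1.45). *Lhx6* with *Sox6* became 1.34 (0.9896 to 1.78) and 1.52 (1.31 to 1.76) there. Of these intervals, the pallial and the control mantle ones include 1. At 50 transcripts the KO pallial value of *Lhx6* with *Erbb4* within clusters was 1.17 (1.07 to 1.28).

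*Npas1* was found in few GE cells, at a level not separated from false decoding. Its highest pair count there was 7 KO cells with *Erbb4* against 2.59 expected, 2.70-fold (1.08 to 5.56). Within clusters that ratio was 2.28 (0.917 to 4.70), with 1 inside the interval. Pallial cells with *Lhx6* and *Npas1* numbered 26 against 14.3 expected in the control, 1.81-fold (1.19 to 2.66), and 62 against 42.3 in the KO, 1.46-fold (1.12 to 1.88). Within clusters these became 1.45 (0.95 to 2.13) and 1.0 (0.771 to 1.29), and both intervals include 1, while at 50 transcripts the KO value within clusters was 1.2 (1.05 to 1.37). In the mantle *Lhx6* and *Npas1* were together in 22 control cells against 13.9 expected, 1.58-fold (0.989 to 2.39), and in 15 KO cells against 11.4, 1.31-fold (0.736 to 2.17), which at 50 transcripts was 1.69-fold (1.36 to 2.08). In the pallial region *Prox1* and *Npas1* had 1.31 and 1.56 with wide intervals (0.271 to 3.84 and 0.676 to 3.08). At 50 transcripts they were together in 0 control cells against 3.38 expected and in 29 KO cells against 17.4, 1.67-fold (1.12 to 2.39). Among Gad+ cells of the whole section that held *Sst*, 355 control and 661 KO cells, *Lhx6* was found in 32.4% and 33.1%, against 20.5% and 17.4% of the others, and *Prox1* in 1.41% and 2.12%, against 4.57% and 4.59%. These cells were not split by region. *Sst* was higher and *Prox1* lower in the pallial region than in the GE, so region and cell type cannot be told apart in these shares.

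**Figure D4:**
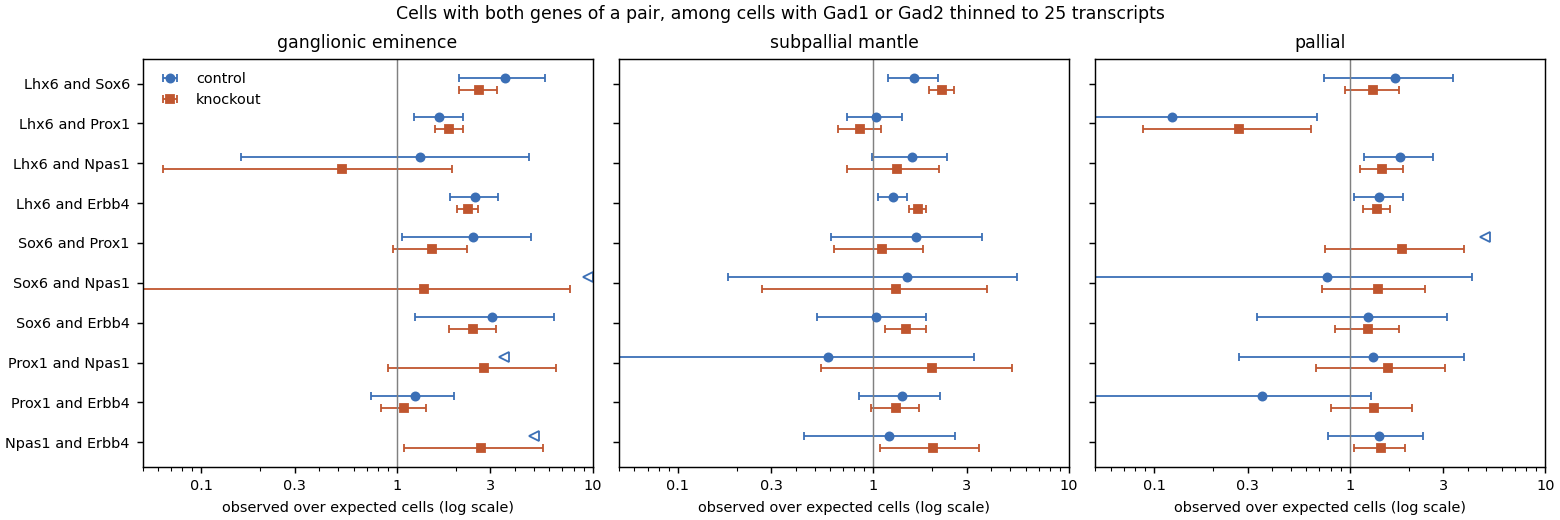
Observed over expected number of Gad+ cells with both genes of a pair (log axis, 1 is independence) in each region for the control (blue) and KO (orange). Bars are exact Poisson 95% intervals of the observed count, and open triangles mark the upper end for pairs found in 0 cells. *Lhx6* with *Prox1* lies above 1 in the GE (1.65 and 1.85) and below 1 in the pallial region (0.123 and 0.271).

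Expression outside Gad+ cells differed between the genes. In the pallial region *Lhx6* had 10313 CPM in Gad+ and 2201 CPM in Gad- cells of the control, and 8485 and 1140 CPM in the KO, log2 ratios of 2.23 (2.04 to 2.41) and 2.90 (2.82 to 2.98). *Erbb4* had 6737 and 1455 CPM in the control and 6120 and 788 CPM in the KO, log2 ratios of 2.21 (1.98 to 2.44) and 2.96 (2.86 to 3.05). *Npas1* had 2661 and 696 CPM in the control and 1904 and 281 CPM in the KO, log2 ratios of 1.93 (1.58 to 2.28) and 2.76 (2.60 to 2.93). The level of these 3 genes was thus higher in Gad+ cells of both sections. In the control, Gad- cells still held more of their pallial molecules, 1085 against 845 for *Lhx6*, 717 against 552 for *Erbb4* and 343 against 218 for *Npas1*.

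*Sox6* and *Prox1* were less so. *Sox6* had 1013 CPM in Gad+ and 491 CPM in Gad- pallial cells of the control and 1498 and 990 CPM in the KO, log2 ratios of 1.05 (0.53 to 1.54) and 0.60 (0.47 to 0.72). *Prox1* had 1904 and 1519 CPM in the control and 1692 and 1237 CPM in the KO, log2 ratios of 0.33 (−0.01 to 0.66) and 0.45 (0.34 to 0.57). With at least 2 *Gad* transcripts required, the control value turned to −0.10 (−0.70 to 0.46), and with the KO thinned to the control depth the KO value turned to −0.12, so *Prox1* had no settled direction. A log2 ratio of 1 or more was reached by 4 of the 5 genes in the control, all but *Prox1*, and by 3 in the KO, where *Sox6* fell short as well. Among all panel genes tested, 8.37% (34 of 406) and 9.44% (47 of 498) reached it. The members are known interneuron genes, so a share above the panel's describes that choice.

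In the GE the same comparison gave smaller values. *Lhx6* had log2 ratios of 0.52 and 0.97 and *Erbb4* of 0.75 and 1.03, Gad+ over Gad-. *Prox1* had −0.02 (−0.24 to 0.21) and −0.09 (−0.19 to 0.01), levels that could not be told apart at this depth. *Sox6* had −0.28 (−0.84 to 0.28) and −0.67 (−0.83 to −0.52), so that its KO level was higher in Gad- cells, 1960 against 1228 CPM. *Npas1* had −0.53 (−1.80 to 0.67) and −0.91 (−1.39 to −0.43), both from low levels of 125 to 254 CPM.

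Whether a Gad- cell with a transcript expresses the gene was read against microglia-like and vascular-like cells of the same pallial region, which should lack these genes. This background was chosen after the data were seen. Its cells were not required to be Gad-: over the section 9.45% and 15.8% of microglia-like and 9.88% and 26.7% of vascular-like cells were Gad+. The background can therefore be raised, and a share that is not above it does not settle whether Gad- cells express the gene. With cells thinned to 25 transcripts it held 222 and 518 microglia-like and 528 and 1243 vascular-like cells. Unthinned median depths were 32 and 93 transcripts in pallial Gad- cells and 44 and 133 in all microglia-like cells. Among Gad- cells the *Lhx6* share was 4.51% (4.10 to 4.94) for the control and 2.91% (2.70 to 3.13) for the KO. Microglia-like cells had it in 5.86% (3.15 to 9.81) and 4.63% (2.99 to 6.82), and vascular-like cells in 5.87% (4.02 to 8.23) and 5.31% (4.13 to 6.71), so the share of Gad- cells was not above this background. *Erbb4* was found in 3.48% (3.13 to 3.87) and 1.88% (1.71 to 2.06), against 2.70% (0.998 to 5.79) and 3.28% (1.92 to 5.20) in microglia-like cells and 2.84% and 2.41% in vascular-like cells. *Npas1* was found in 1.47% (1.24 to 1.73) and 0.742% (0.638 to 0.858), against 1.35% (0.280 to 3.90) and 0.772% (0.211 to 1.97) in microglia-like cells and 1.70% and 0.885% in vascular-like cells. Neither gene was above the pallial background beyond counting error.

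For the other genes the reading depended on the background cells. *Prox1* was found in 2.97% (2.64 to 3.33) and 2.55% (2.35 to 2.75) of pallial Gad- cells. The control share was above vascular-like cells, 0.568% (0.117 to 1.65), but overlapped microglia-like cells, 1.80% (0.493 to 4.55), and the KO share overlapped both, 1.77% (1.11 to 2.67) and 3.86% (2.37 to 5.90). *Sox6* was found in 1.25% (1.04 to 1.5) and 2.79% (2.58 to 3.0). The KO share was above microglia-like cells, 1.16% (0.426 to 2.50), and overlapped vascular-like cells, 2.41% (1.63 to 3.43). The control share overlapped both, 1.80% (0.493 to 4.55) and 0.758% (0.207 to 1.93). All microglia-like cells together, mainly from other parts of the section, had lower shares of *Erbb4*, 2.14% (1.41 to 3.10), and *Npas1*, 0.396% (0.129 to 0.922), in the control, and pallial Gad- cells were above those.

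In a comparison chosen after the data were seen, the share of Gad- cells with *Lhx6* was higher beside Gad+ cells with *Lhx6*. Of pallial Gad- cells within 15 µm of such a cell, the control had 20.3% (17.9 to 23.0) with *Lhx6* and the KO 15.4% (14.6 to 16.3), against 5.54% (5.13 to 5.97) and 5.97% (5.62 to 6.33) of those farther away. By number, 203 such control cells lay near and 647 far, and 1132 KO cells near and 1049 far. In the GE the shares were 49.3% and 38.4% near and 9.99% and 3.80% far. Measured from Gad+ cells with *Prox1*, *Prox1* was found in 27.8% and 22.0% of near cells against 3.69% and 5.90% far in the pallial region. *Sox6* differed least, 2.53% near against 1.82% far in the control, with overlapping intervals, and 13% against 8.10% in the KO. In the pallial region, near cells of the control were deeper, with medians of 36 to 39 transcripts against 31 to 32 in far cells. In the KO the medians were 93 to 100 near and 92 to 93 far. These cells were not thinned, so depth can raise the near shares. The part of misplaced segmentation borders and of true expression in Gad- cells was not tested.

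Cells were also grouped by all other panel genes. The 24 clusters were formed with the 5 genes left out. *Sox6* was highest in a radial glia-like cluster led by *Hopx*, *Aldoc* and *Eomes*, with 3216 CPM (2791 to 3688) in the control and 5622 CPM (5414 to 5835) in the KO. Only 1.89% and 6.79% of these cells were Gad+, and microglia-like cells had 369 and 635 CPM. *Prox1* was highest in the same cluster in both sections, with 6683 CPM (6063 to 7349) and 5335 CPM (5133 to 5543), against 1311 and 1347 CPM in microglia-like cells. The cluster led by *Slc18a2*, *Dlx1* and *Sp9*, with the progenitor gene *Top2a* among its leading genes, came next for *Prox1* with 5841 and 5280 CPM, but 36.3% and 75.8% of its cells were Gad+, and the intervals of both clusters overlapped in both sections. The same radial glia-like cluster had 565 and 646 CPM of *Lhx6* and 126 and 163 CPM of *Npas1*. *Sox6* molecules also lay in cells led by *Creb3l1*, *Thbs2* and *Hhip*, 13.9% and 10.1% of all, at 921 and 1620 CPM.

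Among neurons, a cluster with *Elfn1* and *Sst* among its leading genes had the highest *Lhx6* level, 17336 CPM (16785 to 17900) and 17264 CPM (17032 to 17498), and held 31.2% and 33.7% of all *Lhx6* molecules. Its leading genes also included *Cpne4*, *Epha6*, *Sertm1* and *Chat*, and it was given no class name, so it is not read as cortical *Sst* interneurons. A cluster led by *Reln*, *Ndnf* and *Nxph1*, with *Cxcr4*, *Npy* and *Sst* among its leading genes, had the highest *Npas1*, 2496 CPM (2214 to 2805) and 3479 CPM (3314 to 3650), and 29.4% and 38.5% of its molecules. Under other clusterings the *Npas1* level of the cluster highest in *Ndnf* ran up to 4638 and 4534 CPM. It also had the highest *Erbb4*, 6246 and 10564 CPM, and a high *Lhx6*, 11706 and 16416 CPM. Oligodendrocyte precursor-like cells came second for *Npas1*, with 1205 CPM (844 to 1669) and 1362 CPM (1200 to 1540), and 42.9% and 65.5% of them were Gad+.

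Likeness to other panel genes was described by the correlation of log2(CPM + 50) over the 24 clusters, averaged over both sections. The points share libraries and unequal cell numbers. *Lhx6* was most like *Gad2* (0.89), *Slc32a1* (0.87) and *Nxph1* (0.86), and *Erbb4* had *Gad2* (0.85) and *Nxph1* (0.83) among the most like. *Npas1* was most like *Tbr1*, *Pcdh8* and *Kctd4* (0.72 each). *Prox1* had *Chd7* (0.68) and *Sp8* (0.65), and *Sox6* had *Chd7* (0.59), *Sox9* (0.58) and *Bcan* (0.58). Among the members, *Lhx6* and *Erbb4* had 0.76 in the control and 0.79 in the KO, and *Lhx6* and *Npas1* 0.74 and 0.69. *Sox6* and *Prox1* had 0.65 in the control and 0.23 in the KO.

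**Figure D5:**
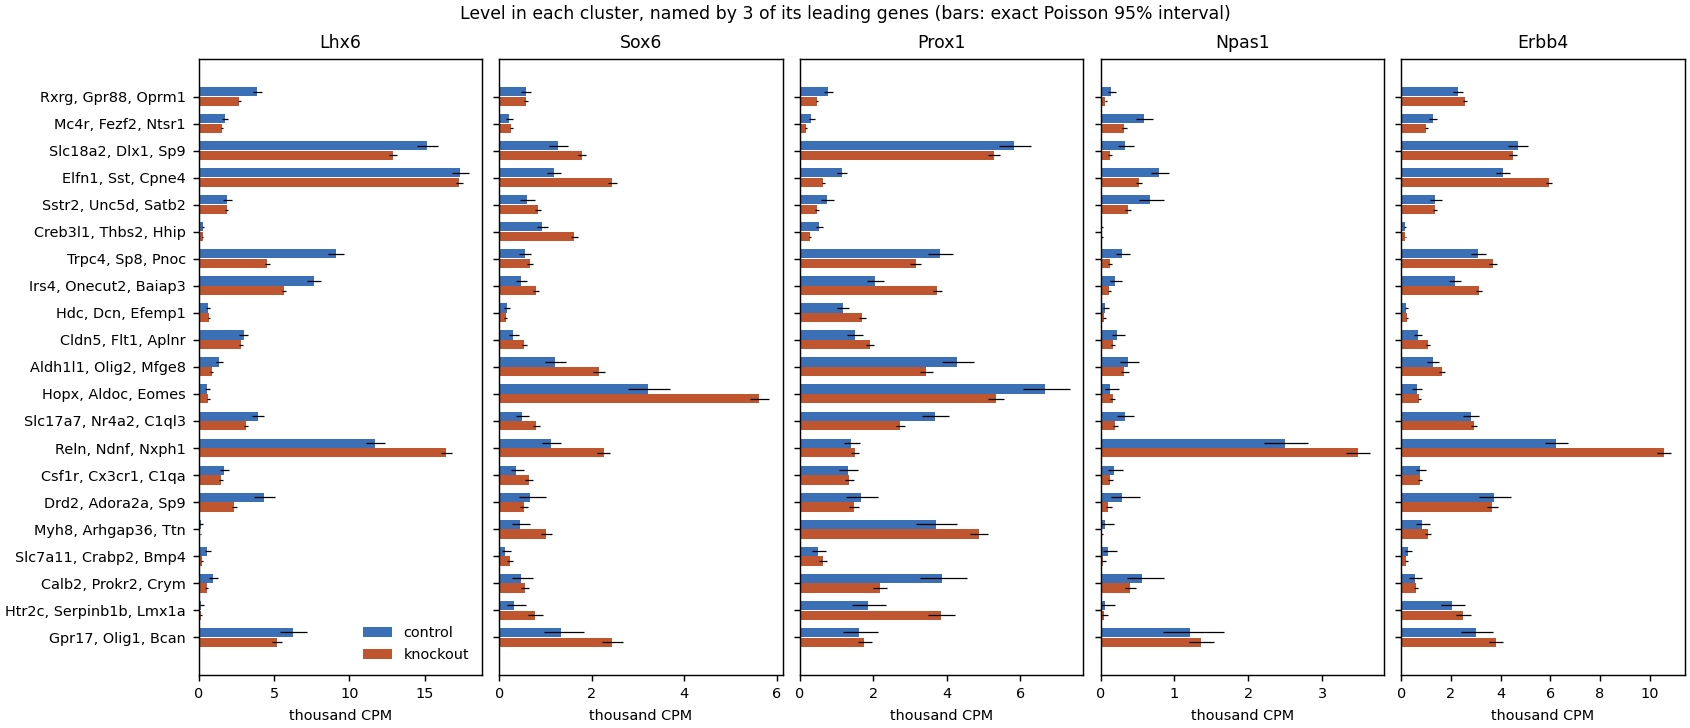
Level of each gene (units of 1000 CPM) in the 21 largest of 24 cell clusters, each named by 3 of its leading genes, in the control (blue) and KO (orange) section. Bars start at 0 and black lines are exact Poisson 95% intervals. *Lhx6* is highest in the cluster with *Elfn1* and *Sst*, *Npas1* and *Erbb4* in the *Reln*, *Ndnf*, *Nxph1* cluster, and *Sox6* and *Prox1* in the *Hopx*, *Aldoc*, *Eomes* cluster.

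Finally, the sections were set against each other. In pallial Gad+ cells the KO over control log2 ratios were −0.28 (−0.41 to −0.15) for *Lhx6*, 0.56 (0.18 to 0.96) for *Sox6*, −0.17 (−0.46 to 0.13) for *Prox1*, −0.48 (−0.74 to −0.22) for *Npas1* and −0.14 (−0.29 to 0.02) for *Erbb4*. None of the 5 was at or past 1 in either direction, where 16% of 486 panel genes were, and the panel median was 0.21. In Gad+ cells of the GE the ratios were −0.42, 0.48, −0.66, −0.50 and 0.01 in the same order, again 0 of 5 beside 15.1% of 476 panel genes. *Sox6* was thus higher and *Lhx6* lower in the KO section in both regions, and *Npas1* lower in the pallial region. The *Sox6* difference was not particular to these cells. Over all kept cells *Sox6* had 727 CPM in the control and 1233 CPM in the KO. It had 665 and 1188 CPM in Gad- cells outside the regions, and 369 and 635 CPM in microglia-like cells. The GE levels of *Npas1* lay inside the blank range and give no direction. The direction of *Lhx6* and *Npas1* was not stable: the highest pairing of hemispheres gave 0.31 and 0.69 in the pallial region and 0.47 for *Lhx6* in the GE, where a minimum of 50 transcripts per cell gave 0.23.

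In pallial Gad- cells *Sox6* had 491 CPM in the control and 990 CPM in the KO, a log2 ratio of 1.01 (0.78 to 1.25), and *Npas1* had 696 and 281 CPM, a log2 ratio of −1.31 (−1.57 to −1.05). These were the 2 of 5 past 1, beside 10.4% of 498 panel genes. The KO *Npas1* level (261 to 301 CPM) lay little above the highest KO blank barcode, 240 CPM. *Lhx6* had −0.95 (−1.08 to −0.81), *Erbb4* −0.88 (−1.05 to −0.72) and *Prox1* −0.30 (−0.45 to −0.14). Depth moved with these values. With the KO thinned to the control depth before the cells were chosen, *Lhx6* had −0.01, *Erbb4* 0.13, *Npas1* −0.45 and *Prox1* −0.09. *Sox6* had 0.9999, just below the threshold, so that 0 of 5 were at or past 1. The panel's share was not computed for the thinned cells. Of the other lists, 3 of 8 medial and 0 of 9 caudal genes were past 1 in pallial Gad+ cells, where 16% of 486 panel genes were. The 3 were *Elfn1* (−1.35), *Pvalb* (1.36, from 8 control molecules) and *Tac1* (1.0, from 2). *Gad1* and *Gad2* define these cells and were not read here.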

How the data were processed

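The authors deposited, for each cell the MERSCOPE software segmented, unnormalized molecule counts of every panel gene, the cell's position and its volume. The decoding version and the segmentation model are not given in the sources used here. The minimum per cell was 20 panel transcripts, and blank barcodes were left out of totals. Regions were drawn on a grid of 25 µm bins after Gaussian smoothing (SD 50 µm), at a 50% share of the gene lists, and the lists and thresholds were set after the maps had been seen. Cells were clustered with Seurat 5.3.0 (R 4.3.3) by log normalization, 30 principal components, reciprocal PCA and Louvain clustering at resolution 0.8, after the study's outline. The number of components was chosen here, the members were left out, and no cluster was divided by hand. No doublet caller was run. Other steps used scipy 1.17.1, pandas 2.3.3 and numpy 2.4.6 in Python 3.11.15. A log2 ratio has no pseudocount, and its interval pairs opposite ends of both Poisson 95% intervals. Expected cells of a pair are the product of both genes' shares within a region. The named genes are the 5 members, listed genes at or past a log2 ratio of 1, and the 3 panel genes most like each member among those at or above the panel median. The members and lists were chosen with earlier results of these data known. Some genes of the lists and likeness ranks are not reported here. Scripts were tested on simulated data. Levels of different genes are set side by side as measured, since probe efficiency is not known.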

Additional observations from a re-analysis of the deposited data

Results flagged for a closer look

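*Prox1* in Gad+ cells was lower in the KO than in the control section in the GE region, with a log2 ratio of −0.66 (−0.82 to −0.49), and higher in the subpallial mantle, with 0.34 (0.18 to 0.50). It stands here because the sections differed in opposite directions in neighbouring regions. The difference between the regions was not tested, since each group has 1 section. In the pallial region the log2 ratio was −0.17 (−0.46 to 0.13). Over 10 alternatives that did not scale by cell volume, the GE value ranged from −1.01 to −0.05.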

How the results depend on the processing

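Of 504 values under alternatives, 363 stayed inside the main counting interval or, for counts of members, near the main count. Another 124 lay beyond that, whether weaker, stronger or, where the main interval allowed both signs, of changed sign. A further 17 reversed a main result whose interval excluded the other sign. No paired analysis was possible because each group has 1 section and shares only the replicate number 1. *Npas1* pallial over GE ranged from 2.20 to 5.46 in the control and from 2.27 to 4.38 in the KO, and *Prox1* from −2.02 to −0.54 and from −1.43 to −0.95, with no change of direction. The control *Npas1* value was 5.46 with a minimum of 50 transcripts, 2.20 with all decoded molecules of the region and 2.53 in its lower hemisphere. The KO *Npas1* value was 4.38 with at least 2 *Gad* transcripts, 4.28 when thinned to the control depth and 2.27 with all decoded molecules. The control *Prox1* value was −1.96 with all decoded molecules and −2.02 and −0.54 by hemisphere. The KO *Prox1* value was −1.39 when thinned, −1.43 with all decoded molecules, −1.24 and −0.95 by hemisphere and −1.33 with borders at 60%. In the highest hemisphere values, 1 member was past 1 in either section.

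All decoded molecules, which include those outside Gad+ cells, reversed *Erbb4* pallial over GE to −0.90 and −0.76 and KO *Sox6* to −0.35. KO *Prox1*, Gad+ over Gad- cells, was −0.12 when thinned. *Lhx6* with *Prox1* in KO pallial cells was −0.45 on the log2 scale without thinning, still below 0.

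Counts per cell volume, which keep the depth difference of the sections, gave KO over control log2 ratios of 1.77, 1.87 and 1.19 for *Lhx6* (pallial Gad+, GE Gad+, pallial Gad-), 1.63 and 1.84 for *Prox1* (GE Gad+, pallial Gad-), 1.57 and 0.83 for *Npas1* (pallial Gad+, pallial Gad-) and 1.26 for *Erbb4* (pallial Gad-). With it 5, 5 and 4 members were past 1 in those 3 groups of cells. The share of all panel genes past 1 was not computed under this or any other alternative of this section. The counts of members given here are therefore not a result about the members. The highest hemisphere pairing gave 0.31 for pallial and 0.47 for GE *Lhx6* and 0.69 for pallial *Npas1*, and a minimum of 50 transcripts gave 0.23 for GE *Lhx6*. Thinning the KO gave 0.13 for *Erbb4* in pallial Gad- cells. The members past 1 in GE Gad+ cells were 1 with a minimum of 50 transcripts and 2 and 1 in the lowest and highest hemisphere pairings. In pallial Gad- cells they were 1 with that minimum, 0 when thinned, 1 without the largest 1% of cells and 1 in the lowest and highest pairings. The cause of these changes was not tested.

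Depth limits the control: its GE *Npas1* value rests on 16 molecules, and its hemispheres had pallial medians of 14 and 22 transcripts. Intervals cover counting error only.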
